A study of Mus musculus with 9 samples.

Results

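Huntingtin (HTT) is the protein that carries the expanded glutamine run in Huntington disease (HD). The mRNA of *Htt* and of 8 genes for proteins that bind HTT was followed in 3 immortalized mouse striatal neuronal cell lines. The 9 genes, *Htt*, *Hap1*, *Hip1*, *Hip1r*, *F8a*, *Hypk*, *Pacsin1*, *Zdhhc17* and *Setd2*, were taken by symbol from a table of 36410 genes. All 9 were listed, and all 9 were among the 13508 genes that passed the filter on low counts. Control cells (STHdhQ7/Q7) carry 7 glutamine codons in *Htt* exon 1 on both alleles. HD-het cells (STHdhQ7/Q111) carry 7 on 1 allele and 111 on the other, and HD-homo cells (STHdhQ111/Q111) carry 111 on both. The paper calls the lines knock-in models and derives the control line from wild-type embryos. The lines were made from mouse embryos of the C57/BL6 strain as the labels name it, were immortalized and were obtained from the Coriell Institute. As every genotype is represented by 1 line, effects of genotype cannot be told apart from those of the line. There were 3 replicate RNA-seq libraries per line, and no source says whether these came from separate cultures, so that p values measure the spread between these libraries and that spread may be technical.

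HTT is a large scaffold protein whose glutamine run lies near its amino terminus, just after a short amphipathic stretch and before a proline-rich stretch. It binds motor adaptors, endocytic coat proteins and chromatin proteins, and in neurons it is known for promoting the transport of vesicles that carry brain-derived neurotrophic factor. HAP1 links HTT to dynactin and kinesin, and HAP40, the product of *F8a*, packs into the core of HTT and stabilizes it. HIP1 and HIP1R bind clathrin and actin, PACSIN1 bends membranes at the neuronal synapse, HYPK is a chaperone-like regulator of N-terminal acetylation, ZDHHC17 attaches palmitate to HTT and other neuronal proteins, and SETD2 trimethylates lysine 36 of histone H3 behind RNA polymerase II.

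The stretch of *Htt* that differs between the lines is shown from the reference genome, since the counts hold no bases and the alleles of the lines were not read. Exon 1 of the lines need not have the same bases. In mouse *Htt* the run is coded in exon 1 of 67, on the plus strand of chromosome 5, at chr5:34761907-34762002 of GRCm38. The 96 bases start with the start codon. Capitals mark the glutamine run, codons 18 to 24, which holds 6 CAG codons and 1 CAA codon and so matches the 7 glutamines of the Q7 allele in number.
Htt coding start: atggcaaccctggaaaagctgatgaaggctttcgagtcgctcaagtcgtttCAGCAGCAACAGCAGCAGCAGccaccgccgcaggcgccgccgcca
The run takes up 21 of the 9360 coding bases. The reads of a library were counted over the whole gene, so that the *Htt* count does not separate the Q7 from the Q111 transcript in HD-het cells.

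Library totals ran from 29507665 to 41197931 counts, and 3 counts, the smallest number taken to show a gene, corresponded to 0.0710 to 0.101 CPM (normalized counts per megaread), a floor for counting error only. Replicates differed by more than sampling noise in every pair, and by unequal amounts. The variance over that from counting was 2.2 to 11.8 in control, 6.18 to 21.1 in HD-het and 22.6 to 39.2 in HD-homo pairs. The tests below share 1 estimate of the spread per gene over the 3 lines. The label "striatal" was checked against marker genes. Of 10 markers of striatal projection neurons, *Drd1* had 0 counts in all 9 libraries, *Drd2* had at most 1 and *Ppp1r1b* at most 17, while *Foxp1* had at least 2601. Of 9 general neuron markers, *Map2* and *Tubb3* were well detected in all lines and *Rbfox3*, *Snap25* and *Syt1* had at most 2 counts in any library. The 4 progenitor markers summed to 5893.7 to 6356.4 CPM in control, 5315.2 to 5819.1 in HD-het and 4157.3 to 4574.0 in HD-homo libraries, mostly from *Vim*. In the order control, HD-het, HD-homo, *Nes* had a mean of 526.3, 839.5 and 28.4 CPM, *Sox2* had 128.1, 82.9 and 5.48, and *Pax6* had 32.1, 48.2 and 0.132. The 7 fibroblast markers, *Lum* being close to 0, summed to 2568.8 to 3475.1 CPM in control, 7865.3 to 9102.8 in HD-het and 6495.8 to 7016.6 in HD-homo libraries, mostly from *Col1a1*. Single members differed from the sum, as *Col1a2* had 73.4, 3.15 and 1494.0 CPM and *Pdgfra* 5.21, 4.38 and 306.6 CPM in the same order of lines. Summed levels of 5 astrocyte markers were 2.52 to 2.67 CPM in control, 0.620 to 1.23 in HD-het and 12.5 to 17.8 in HD-homo libraries, mainly from *Slc1a3*, with *Aqp4* at no more than 1 count. The 6 oligodendrocyte, 6 immune and 4 endothelial markers summed to at most 2.86, 6.26 and 1.55 CPM in any library, with *Mog* and *Aif1* at 0 in all. These marker levels move with the lines, as do the results below, and their part in those results was not tested. In such bulk samples, a smaller share of cells that make an mRNA and less of it per cell cannot be told apart.

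*Htt* mRNA was highest in control cells, intermediate in HD-het cells and lowest in HD-homo cells. Control libraries held 103.7, 103.2 and 93.0 CPM, HD-het libraries 61.8, 64.0 and 61.1 CPM, and HD-homo libraries 19.7, 21.7 and 19.2 CPM. These rest on between 643 and 3470 reads per library, and no library of one line overlapped one of another. The means were 99.97 ± 6.00, 62.3 ± 1.51 and 20.2 ± 1.29 CPM (SD, n = 3). HD-homo cells thus had 20.2% of the control level, a 4.95-fold difference, and HD-het cells had 62.3%. On the log2 scale HD-homo differed from control by -2.31 (SE 0.0694, 95% interval -2.46 to -2.15, adjusted p = 3.4e-10) and HD-het from control by -0.68 (SE 0.0652, adjusted p = 4.4e-06). All adjusted p values in the text come from edgeR's quasi-likelihood test, two-sided, with Benjamini-Hochberg adjustment over the 13508 genes. Where a library was left out, the filter was applied again and the adjustment covered the genes that then passed. HD-homo differed from HD-het by -1.62 (adjusted p = 3.8e-09). Other genes differed more between these lines, since 560 of the tested genes (4.15%) had a lower log2 fold change in HD-homo against control, and 1582 (11.7%) had one in HD-het against control.

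**Figure D1:**
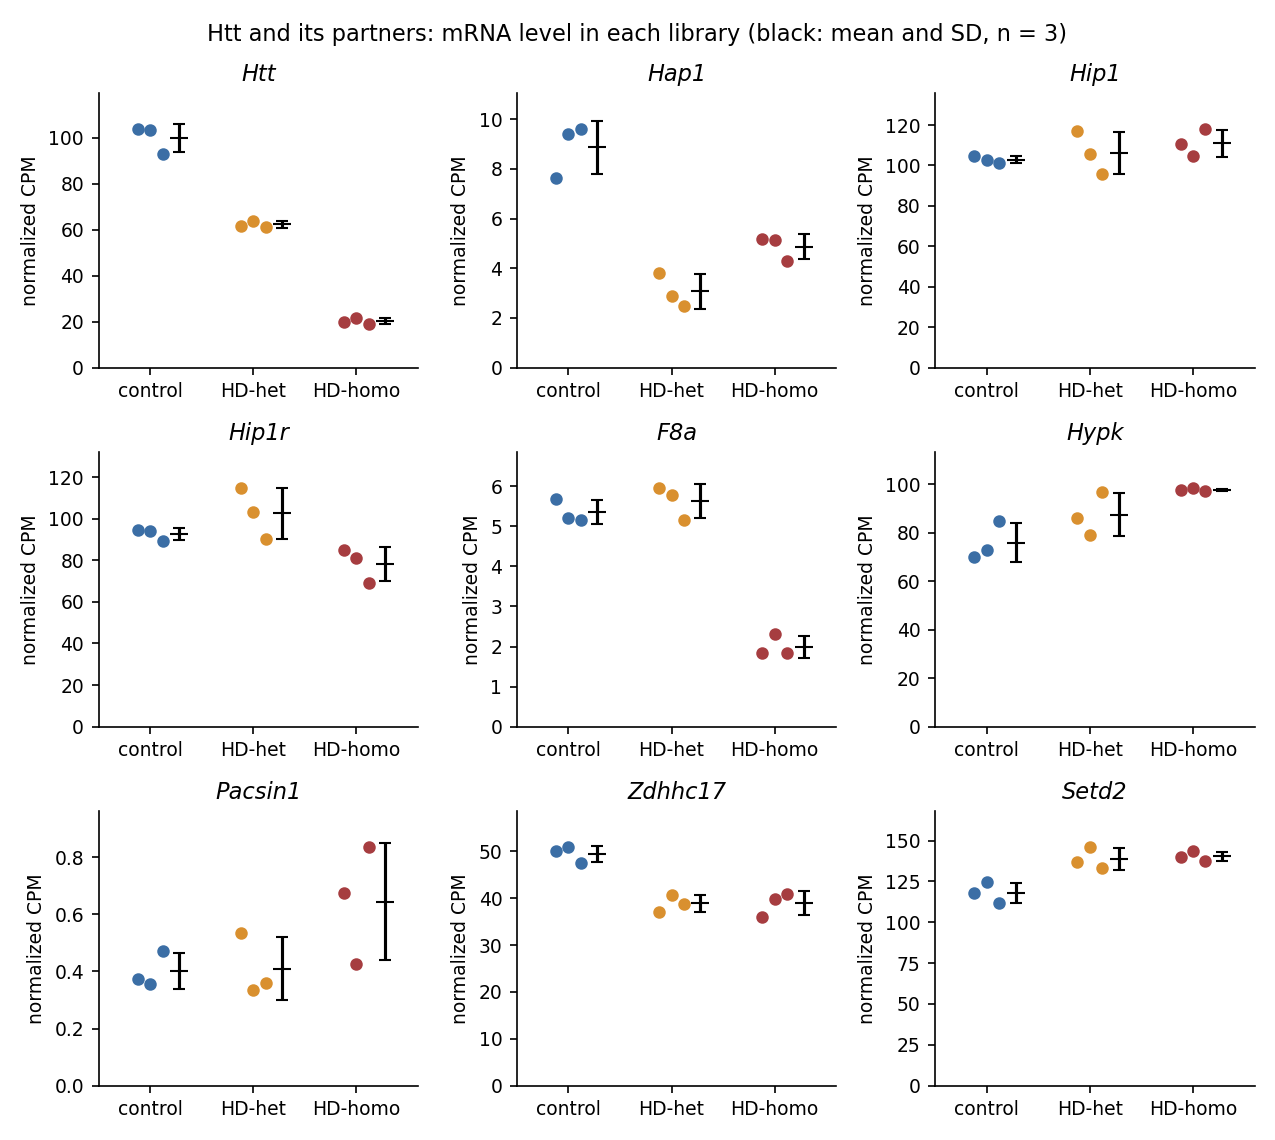
Normalized CPM (vertical axes, each from 0) of the 9 genes in the 3 libraries of each line (coloured points), with the mean and SD of the 3 libraries in black. *Htt* steps down from 99.97 to 62.3 to 20.2 CPM, *F8a* is low in HD-homo libraries only, and *Hap1* is lowest in HD-het libraries.

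Since HD-het cells hold 1 allele of each kind, their level was also set against the midpoint of control and HD-homo cells. For *Htt* the midpoint was 60.1 CPM on the linear scale, and the HD-het mean of 62.3 CPM lay 2.24 CPM above it (SE 1.97), at 103.7% of the midpoint. This is a description, added after the data were seen, and the alleles themselves were not counted. On the log2 scale, where the midpoint is a geometric mean, HD-het cells lay 0.47 above it (SE 0.0564, adjusted p = 1.8e-05). Of the 9 genes, 5 passed this log2 test, against 70.2% of all tested genes, and without HD-het replicate 1 the count was 3.

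Among the 9 genes, 7 passed the threshold in HD-homo against control, where 58.6% of all tested genes did. *Hypk* and *Setd2* were higher (2 of 9, against 29.6% of all), and *Htt*, *F8a*, *Hap1*, *Zdhhc17* and *Hip1r* were lower (5 of 9, against 28.9%). In HD-het against control 4 passed, against 65.1% of all tested genes: *Setd2* was higher (1 of 9, against 33.8%) and *Hap1*, *Htt* and *Zdhhc17* were lower (3 of 9, against 31.4%). In HD-homo against HD-het 4 passed, against 71.6% of all: *Hap1* was higher and *Htt*, *F8a* and *Hip1r* were lower. Both comparisons with control use the same 3 control libraries, so that they are not independent. Libraries of the lines compared did not overlap for 7 of the 9 genes in HD-homo against control (65.3% of all tested genes), for 4 in HD-het against control (74.0%) and for 5 in HD-homo against HD-het (72.8%). With 3 libraries against 3, an exact two-sided permutation test cannot go below 0.10, which is the value of each of these separations. The lines differed in most genes. The shares of the 9 genes past the threshold lay above the background in HD-homo against control, through the lower genes, and below it in the other comparisons, and these departures were not tested.

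**Figure D2:**
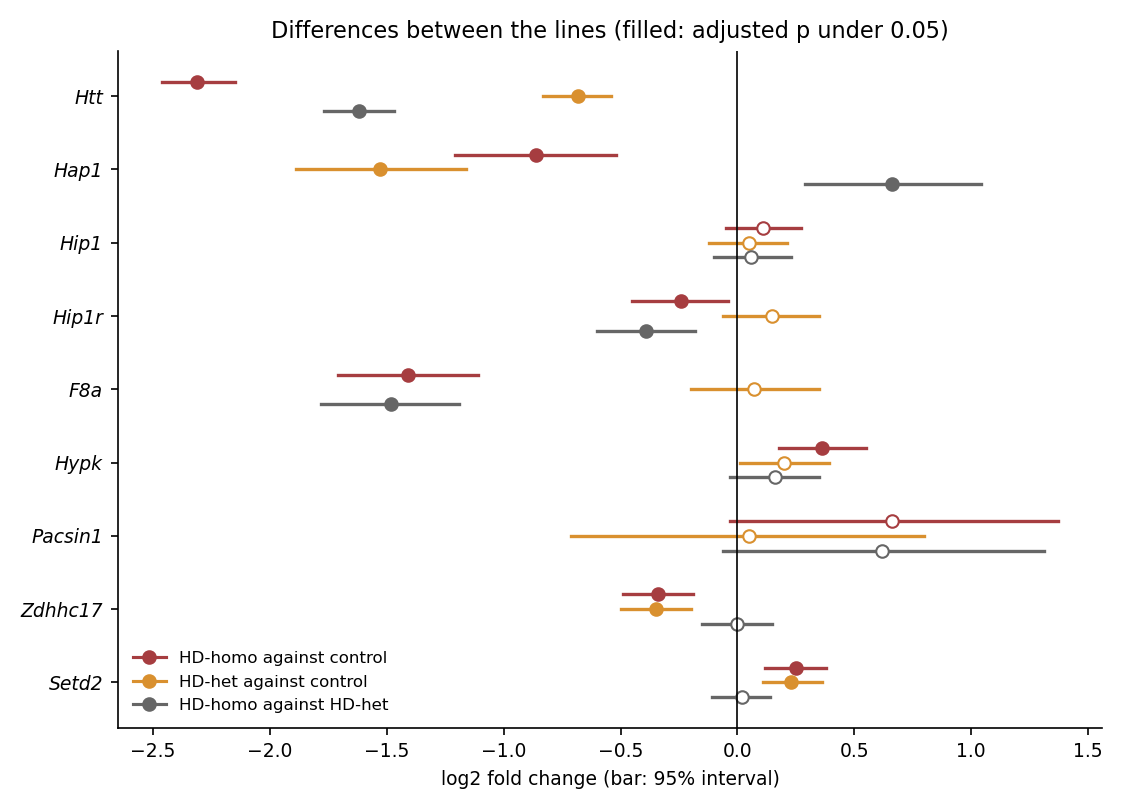
Log2 fold changes (horizontal axis) of the 9 genes in the 3 comparisons, with 95% intervals as bars and filled points where the adjusted p was under 0.05. *Htt* and *F8a* lie far to the left in both comparisons of HD-homo cells, *Hap1* is furthest left in HD-het cells, and the intervals of *Pacsin1* are the widest.

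*Hap1*, the adaptor between HTT and the microtubule motors, was lower in both HD lines and lowest in HD-het cells. Control libraries held 7.65, 9.40 and 9.60 CPM, HD-het libraries 3.83, 2.90 and 2.49 CPM, and HD-homo libraries 5.18, 5.14 and 4.29 CPM. No 2 lines overlapped, although the values rest on only 83 to 316 reads per library. The means were 8.88 ± 1.07, 3.07 ± 0.692 and 4.87 ± 0.500 CPM (SD, n = 3), so that HD-het cells had 34.6% and HD-homo cells 54.8% of the control level. The log2 fold change was -1.53 in HD-het against control (SE 0.166, adjusted p = 1.2e-05) and -0.86 in HD-homo against control (SE 0.159, adjusted p = 0.0007). HD-homo cells exceeded HD-het cells by 0.66 (SE 0.17, adjusted p = 0.00435). The HD-het mean lay below both other lines, at 44.7% of their linear midpoint, and differed from the log2 midpoint by -1.10 (adjusted p = 5.2e-05). The order of the lines for *Hap1* was therefore not that of *Htt*.

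*F8a*, which encodes HAP40, was lower in HD-homo cells, and no difference between HD-het and control cells passed the test. Control libraries held 5.69, 5.20 and 5.17 CPM, HD-het libraries 5.95, 5.79 and 5.15 CPM, and HD-homo libraries 1.84, 2.32 and 1.85 CPM. Control and HD-het libraries overlapped, and HD-homo libraries, with 60 to 98 reads each, lay below all of them. The means were 5.36 ± 0.292, 5.63 ± 0.423 and 2.00 ± 0.275 CPM (SD, n = 3). HD-homo differed from control by -1.41 (SE 0.135, adjusted p = 4.5e-06) and from HD-het by -1.48 (SE 0.134, adjusted p = 1.8e-06). HD-het against control was 0.07 with a 95% interval of -0.20 to 0.35 (adjusted p = 0.629), an interval that leaves out the *Htt* difference of the same cells (-0.68). The HD-het mean was 153.0% of the linear midpoint, and on the log2 scale it lay 0.78 above the midpoint (adjusted p = 6.3e-05). Per 100 *Htt* reads there were 5.04 to 5.56 *F8a* reads in control, 8.43 to 9.62 in HD-het and 9.33 to 10.7 in HD-homo libraries. The ratio in reads, which is not corrected for length, was higher in both HD lines than in control without overlap, and the HD-het and HD-homo libraries overlapped. *F8a* is a gene of 1 exon on chromosome X, with no 50-base word in common with other genes, as was found for *Htt*.

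*Htt* and *F8a* had the largest decreases among the 9 genes in HD-homo cells, and the 250 bases before their RefSeq starts (GRCm38.p6) are shown for that reason, each on the plus strand. Capitals mark matches on either strand to 4 motifs: the GC box GGGCGG, the cyclic AMP response element TGACGTCA, the TATA element TATAAA and the ETS core CCGGAAG.
Htt, chr5:34761490-34761739: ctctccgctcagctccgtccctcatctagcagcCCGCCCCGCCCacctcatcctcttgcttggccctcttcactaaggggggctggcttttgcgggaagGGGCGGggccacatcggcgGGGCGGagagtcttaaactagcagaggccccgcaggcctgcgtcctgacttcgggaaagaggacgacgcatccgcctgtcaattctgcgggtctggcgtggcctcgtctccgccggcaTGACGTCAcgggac
F8a, chrX:73228056-73228305: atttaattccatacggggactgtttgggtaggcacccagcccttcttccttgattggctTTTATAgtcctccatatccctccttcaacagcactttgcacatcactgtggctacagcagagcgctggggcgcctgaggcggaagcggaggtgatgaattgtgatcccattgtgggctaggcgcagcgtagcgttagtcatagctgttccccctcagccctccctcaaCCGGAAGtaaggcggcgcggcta
The *Htt* window held 4 GC boxes, of which the pair printed as 1 run share a base, and 1 cyclic AMP response element, with 66.4% G or C. The *F8a* window held 1 match to the TATA element and 1 to the ETS core, with 55.6% G or C, and shared none of the 4 motifs with the *Htt* window. The TATA match is on the opposite strand and lies farther from the *F8a* start than from the other end of the window. Among 32851 promoter windows of this length the median was 52.4% G or C, and 32.7% held a GC box, 1.55% the cyclic AMP response element, 12.4% the TATA element and 6.91% the ETS core. A match is a run of letters and not a measured binding site.

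The endocytic members differed less. *Hip1*, a clathrin and actin binding adaptor, had 104.6, 102.9 and 101.1 CPM in control, 116.8, 105.9 and 96.0 CPM in HD-het and 110.5, 104.5 and 117.9 CPM in HD-homo libraries. All lines overlapped. HD-homo against control was 0.11 (95% interval -0.05 to 0.27, adjusted p = 0.228) and HD-het against control was 0.05 (-0.12 to 0.21, adjusted p = 0.602), so that these intervals bound any difference. *Hip1r*, its relative that restrains actin assembly at clathrin coats, had 94.7, 94.1 and 89.3 CPM in control, 114.6, 103.2 and 90.1 CPM in HD-het and 84.8, 81.0 and 69.0 CPM in HD-homo libraries. HD-homo libraries lay below all others, while control and HD-het libraries overlapped. HD-homo differed from HD-het by -0.39 (SE 0.0945, adjusted p = 0.00308). Against control the difference was -0.24 (SE 0.0946, adjusted p = 0.0450), and it missed the threshold when control replicate 1, 2 or 3, HD-homo replicate 2 or 3 or HD-het replicate 2 was left out (adjusted p = 0.052 to 0.139). In these refits the difference was -0.16 without HD-homo replicate 3 and -0.23 to -0.27 otherwise. HD-het against control was 0.15 (adjusted p = 0.191), and leaving out HD-het replicate 1 or 3 gave 0.06 (adjusted p = 0.607) or 0.23 (adjusted p = 0.0403). On the opposite strand *Vps37b* overlaps 12.5% of the exon bases of *Hip1r*. *Vps37b* moved by -0.09 in HD-homo (adjusted p = 0.46) and by -0.66 in HD-het cells (adjusted p = 0.00013), and 2.59% of the 50-base words of *Hip1r* occur in other genes.

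*Pacsin1*, the neuronal member of its family, was close to the detection floor. It had 12, 12 and 14 reads in control, 19, 11 and 12 in HD-het and 22, 18 and 28 in HD-homo libraries, or means of 0.401 ± 0.0631, 0.410 ± 0.109 and 0.645 ± 0.206 CPM (SD, n = 3). HD-homo libraries overlapped the others. The difference from control was 0.66, with a 95% interval of -0.03 to 1.37 (adjusted p = 0.0911), and it ran from 0.43 without HD-homo replicate 3 (adjusted p = 0.297) to 0.91 without HD-homo replicate 2 (adjusted p = 0.0235). HD-homo against HD-het was 0.62 (adjusted p = 0.0935), and without the same libraries it was 0.38 (adjusted p = 0.318) and 0.87 (adjusted p = 0.0215). HD-het against control was 0.05 with an interval of -0.71 to 0.80, so that a change of that size was not detectable at this depth.

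*Hypk*, the regulator of the NatA acetyltransferase, rose in HD-homo cells. Control libraries held 70.1, 72.9 and 84.9 CPM, HD-het libraries 86.2, 79.2 and 96.8 CPM, and HD-homo libraries 97.6, 98.4 and 97.2 CPM. HD-homo libraries lay close together and above all others, while control and HD-het libraries overlapped. HD-homo differed from control by 0.36 (SE 0.0857, adjusted p = 0.00365). HD-het against control was 0.20 (SE 0.0858, adjusted p = 0.0570), which passed without control replicate 3 (0.29, adjusted p = 0.0128) or HD-het replicate 2 (0.27, adjusted p = 0.0222) and shrank to 0.12 without HD-het replicate 3 (adjusted p = 0.218). HD-homo against HD-het was 0.16 (adjusted p = 0.112), and it was 0.24 when HD-het replicate 3 was left out (adjusted p = 0.0251) and 0.09 when HD-het replicate 2 was (adjusted p = 0.373). *Hypk* shares 1893 exon bases, 35.9% of its own, with *Serf2* on the same strand and 1576 with *Serinc4* on the opposite one, and 35.2% of its 50-base words occur in other genes. *Serf2* was higher by 0.32 in HD-homo (adjusted p = 0.00078) and by 0.80 in HD-het cells (adjusted p = 7e-07). How the authors' counting divided such reads is not given in the sources used here, so that the *Hypk* values are uncertain.

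*Zdhhc17*, the palmitoyl transferase of HTT, was lower in both HD lines. Control libraries held 50.0, 50.9 and 47.5 CPM, HD-het libraries 37.1, 40.8 and 38.8 CPM, and HD-homo libraries 36.1, 39.9 and 40.9 CPM. All control libraries lay above all HD libraries, and the HD lines overlapped. The means were 49.5 ± 1.76, 38.9 ± 1.84 and 39.0 ± 2.55 CPM (SD, n = 3). The log2 fold change was -0.35 in HD-het (SE 0.0681, adjusted p = 0.00092) and -0.34 in HD-homo cells against control (SE 0.068, adjusted p = 0.00118). The HD lines differed by 0.00 with a 95% interval of -0.15 to 0.15. *Htt* differed by -1.62 between them, and a relation of the 2 genes was not tested.

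*Setd2*, the histone methyltransferase, was higher in both HD lines. Control libraries held 117.7, 124.4 and 111.6 CPM, HD-het libraries 137.0, 145.9 and 133.3 CPM, and HD-homo libraries 139.8, 143.4 and 137.6 CPM. All HD libraries lay above all control libraries. HD-het differed from control by 0.23 (SE 0.0585, adjusted p = 0.00432), HD-homo by 0.25 (SE 0.0584, adjusted p = 0.00345), and HD-homo from HD-het by 0.02 (95% interval -0.11 to 0.14). The mean rise was 17.7% in HD-het and 19.0% in HD-homo cells.

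Levels of different genes were compared per kb of exon, with all annotated exons of a gene merged. *Hypk* was the highest of the 9 genes in each line (14.4, 16.6 and 18.5 CPM per kb, in the order control, HD-het, HD-homo) and *Pacsin1* the lowest (0.0615, 0.0629 and 0.0989 CPM per kb). The place of *Hypk* is uncertain, as 35.9% of its exon bases are shared with *Serf2* and the division of such reads is not given. *Htt* had 4.09 ± 0.246, 2.55 ± 0.0616 and 0.827 ± 0.0527 CPM per kb (SD, n = 3), and stood at place 6 of 9 in control and HD-het cells and place 7 in HD-homo cells. In control cells the order per kb of merged exon was *Hypk*, *Hip1r*, *Setd2*, *Hip1*, *Zdhhc17*, *Htt*, *Hap1*, *F8a* and *Pacsin1*. On this scale libraries of neighbours overlapped only for *Hap1* and *F8a*. In HD-het cells *F8a* (2.25 CPM per kb) stood above *Hap1* (0.816), and *Hypk*, *Hip1r* and *Setd2* overlapped as neighbours. In HD-homo cells *Htt* overlapped *F8a* (0.800 CPM per kb), its HAP40 partner, and *Hap1* (1.29) stood above both. The merged exons of *Htt*, 24438 bases, exceed its longest transcript of 13215 bases, and with the latter its level was 7.56, 4.72 and 1.53 CPM per kb, at place 6 in every line. On that scale *Htt* in HD-homo cells (1.53 ± 0.0974) stood apart from *F8a* (0.800 ± 0.110) and its mean was above that of *Hap1* (1.47 ± 0.151).

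**Figure D3:**
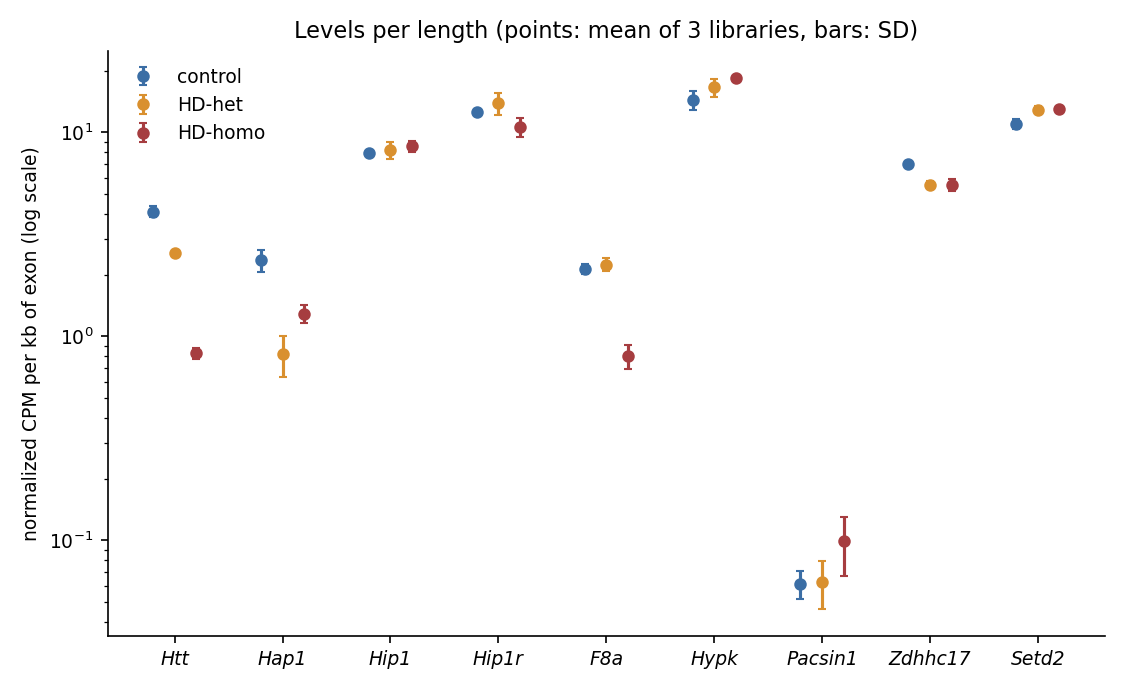
Mean normalized CPM per kb of merged exon (log axis) of the 9 genes in the 3 lines, with the SD of 3 libraries as bars. *Hypk*, whose values are uncertain because of exon bases shared with *Serf2*, is highest and *Pacsin1* lowest in each line. *Htt* and *F8a* have means of 0.827 and 0.800 CPM per kb in HD-homo cells, which per kb of longest transcript would be 1.53 and 0.800.

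Further genes, binding partners or relatives of the members or genes of the same processes, were described as 7 lists. Some lists share genes, so that their counts are not separate. Each is given by the number past the threshold and the median log2 fold change. The median over all tested genes was 0.01 in HD-homo and 0.03 in HD-het cells. Over all tested genes 29.6% were higher and 28.9% lower in HD-homo against control, and 33.8% were higher and 31.4% lower in HD-het against control. The counts of each list are to be read against these shares, and no list was tested against them. Of 27 other HTT-interacting proteins, 8 were higher and 6 lower in HD-homo against control (median 0.05), and 5 were higher and 10 lower in HD-het against control (median -0.06). Of these, *Optn* rose most in HD-homo cells, an autophagy receptor, going from 14.0 ± 1.01 to 35.4 ± 7.03 CPM (log2 1.34, adjusted p = 4.1e-06), with 33.2 ± 1.24 CPM in HD-het cells. *Rasa1*, a RAS GTPase-activating protein, fell most, from 151.4 ± 16.8 to 83.6 ± 1.11 CPM (-0.86, adjusted p = 1.2e-05). *Rasa1* was higher in HD-het cells (194.7 ± 22.0 CPM, log2 0.36, adjusted p = 0.00440).

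Of 19 genes for HAP1 and transport partners, 3 were higher and 8 lower in HD-homo against control (median -0.19; 29.6% and 28.9% of all tested genes), and 10 were higher and 2 lower in HD-het against control (median 0.16; 33.8% and 31.4% of all). The lowest was *Kif5c*, a neuronal kinesin heavy chain. It had 1704, 1786 and 1314 reads in control, 1680, 1635 and 1232 in HD-het and 19, 48 and 16 in HD-homo libraries. The mean fell from 50.2 ± 4.98 to 0.732 ± 0.354 CPM in HD-homo cells (log2 -6.04, adjusted p = 1.7e-09), while HD-het cells held 44.7 ± 6.87 CPM (-0.17, adjusted p = 0.342). *Bdnf*, the neurotrophin carried by HTT-dependent vesicles, rose from 63.6 ± 3.21 to 123.4 ± 20.1 CPM in HD-homo (log2 0.96, adjusted p = 1.3e-05) and to 110.9 ± 6.90 CPM in HD-het cells (0.80, adjusted p = 4.6e-05).

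Among 22 clathrin-coat and endocytosis genes, of which 21 were tested, 4 were higher and 7 lower in HD-homo cells (median -0.02), and 9 were higher and 6 lower in HD-het cells (median 0.04). Here and for the NatA genes below, 29.6% of all tested genes were higher and 28.9% lower in HD-homo cells. In HD-het cells these shares were 33.8% and 31.4%. *Dnm1*, the neuronal dynamin that cuts vesicles from the membrane, rose in HD-homo cells from 36.5 ± 1.30 to 82.3 ± 7.02 CPM (log2 1.17, adjusted p = 1.3e-07) and was at 36.7 ± 1.86 CPM in HD-het cells. *Snap91*, a neuronal clathrin assembly protein, had 26, 50 and 22 reads in control, 13, 14 and 10 in HD-het and 0, 1 and 1 in HD-homo libraries, the last at or under the floor (adjusted p = 7.9e-06). Of 5 genes of the NatA complex that HYPK regulates, 1 was higher and 2 lower in HD-homo cells (median -0.05), and none was higher and 3 lower in HD-het cells (median -0.41). The catalytic partner *Naa50* was higher by 0.21 in HD-homo cells (adjusted p = 0.0224), and *Naa16*, an auxiliary subunit, was at -0.26 (adjusted p = 0.00238).

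Of 20 DHHC palmitoyl transferases other than *Zdhhc17*, 19 were tested, and 6 were higher and 6 lower in HD-homo cells (median -0.06), as were 6 and 6 in HD-het cells (median 0.04). Beside this list and the H3K36 list below, 29.6% of all tested genes were higher and 28.9% lower in HD-homo cells. In HD-het cells these shares were 33.8% and 31.4%. *Zdhhc2* went from 51.6 ± 0.694 CPM in control to 21.3 ± 1.51 in HD-het and 21.5 ± 4.26 in HD-homo cells (log2 -1.27 and -1.26). *Zdhhc23* rose in HD-homo (1.11, adjusted p = 0.00331) and fell in HD-het cells (-1.77, adjusted p = 0.00078), on 9 to 123 reads per library. Of 15 genes of H3K36 methylation and its RNA polymerase II partners, 3 were higher and 4 lower in HD-homo cells (median -0.05), and 2 were higher and 9 lower in HD-het cells (median -0.17). There *Dnmt3b*, a DNA methyltransferase that reads this mark, was at 0.75 in HD-homo cells (adjusted p = 0.00368), and *Msh6*, a mismatch repair protein that reads it too, was at -0.96 (adjusted p = 3.2e-06).

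Among 9 paralogs or relatives of the members, 1 was higher and 2 lower in HD-homo cells (median -0.06), and 2 were higher and 4 lower in HD-het cells (median -0.15). The shares of all tested genes were 29.6% higher and 28.9% lower in HD-homo cells, and 33.8% and 31.4% in HD-het cells. *Pacsin3* rose from 23.3 ± 0.696 to 44.0 ± 3.12 CPM in HD-homo cells (log2 0.91, adjusted p = 5.7e-07), and was at 27.2 ± 0.460 CPM in HD-het cells. *Zdhhc13*, the nearest relative of *Zdhhc17*, was lower in HD-homo (-0.41, adjusted p = 0.00087) and at 0.11 in HD-het cells (adjusted p = 0.227).

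The genes around *Htt* were described to see whether the decrease extended along the chromosome. Of the 10 nearest tested genes on each side, up to 1104.6 kb away, 9 were higher and 5 lower in HD-homo against control (median 0.10), where 29.6% and 28.9% of all tested genes were. In HD-het against control 11 were higher and 2 lower (median 0.37), against 33.8% and 31.4% of all. *Msantd1*, whose locus overlaps the end of *Htt* on the same strand without shared exon bases, had 30, 40 and 22 reads in control, 28, 23 and 13 in HD-het and 5, 4 and 3 in HD-homo libraries (log2 -3.07, adjusted p = 4.1e-05, in HD-homo). The nearest gene on the other side, *Grk4* at 6.43 kb, was at -0.19 in HD-homo (adjusted p = 0.22) and at 0.42 in HD-het cells (adjusted p = 0.013). *Mfsd10*, 124.5 kb from *Htt*, had 25, 15 and 18 reads in control, 930, 754 and 889 in HD-het and 2553, 3259 and 2582 in HD-homo libraries (log2 5.37 and 6.98), the opposite order of lines to *Htt*. *Dok7*, 144.2 kb away on the other side, had 490, 423 and 427, then 316, 256 and 283, then 47, 57 and 38 reads (log2 -0.75 and -3.42), the same order as *Htt*. These 4 neighbours were chosen after their values were seen. Around *F8a* the 20 nearest tested genes held 4 higher and 9 lower in HD-homo (median -0.28), and 11 higher and 4 lower in HD-het cells (median 0.29), beside the same shares of all tested genes.

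**Figure D4:**
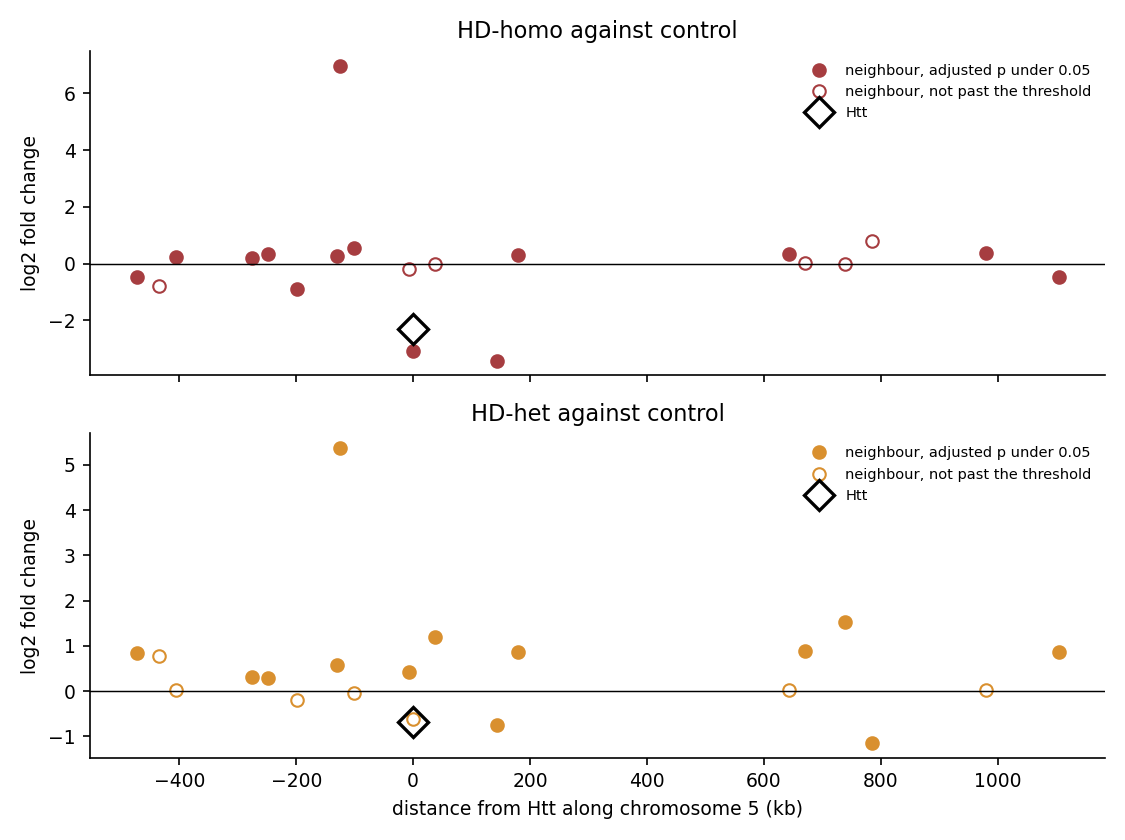
Log2 fold change (vertical axis) of *Htt* (open diamond) and its 20 nearest tested genes (circles, filled where the adjusted p was under 0.05) against their distance from *Htt* in kb, for HD-homo (upper) and HD-het (lower) against control. In HD-homo cells *Msantd1* and *Dok7* lie below *Htt* at -3.07 and -3.42, *Mfsd10* lies at 6.98, and the median neighbour is at 0.10.

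The genes whose log2 CPM most resembled that of *Htt* over the 9 libraries were sought among the 9266 tested genes with a mean of at least 10 CPM. The closest were *Ust* (Pearson r 0.9983), *Fzd3* (0.9953), *Kcnip1* (0.9946), *Bard1* (0.9944) and *Dtx4* (0.9944). The points are 9 libraries in 3 groups, so that r mainly measures the order and spacing of 3 line means, and it carries no p here. *Ust*, a sulfotransferase, went from 31.3 to 20.7 to 7.45 CPM, and *Fzd3*, a Wnt receptor, from 33.1 to 23.7 to 8.53 CPM, close to the steps of *Htt*. *Dtx4* went from 31.4 to 21.1 to 8.96 CPM. A high r does not require a change of the same size. *Bard1* fell less than *Htt*, from 42.0 to 35.8 to 22.8 CPM (log2 -0.88 in HD-homo and -0.23 in HD-het cells). *Kcnip1*, a potassium channel partner, fell from 67.1 to 8.76 CPM and then to 0.0281 CPM, a level under the floor of 3 counts, so that its low HD-homo values only bound the fall.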

How the data were processed

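Total RNA for 9 libraries, 3 per line, was poly(A) selected and made into directional libraries per the labels. The authors deposited raw read counts per gene symbol, whole numbers without normalization. The submitters' processing notes name cutadapt, Bowtie 1.1.2, RSEM 1.3.0, DESeq2 and the builds GRCm38.p5 and mm10, and their roles are not given in the sources used here. A date stands in place of the symbol for 26 genes. *Nsd2* and *Nsd3* are also listed under older names with reads of their own, and the current symbol was used.

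The analysis used edgeR 4.0.16 under R 4.3.3. Low counts were filtered with filterByExpr (minimum count 10, lines as groups), and TMM factors (0.984 to 1.03) scaled the libraries to normalized CPM. The quasi-likelihood test compared the line means in a joint fit of the 9 libraries and 13508 genes, with an adjusted p under 0.05 as the threshold. The pipeline was tested on simulated data. The 9 members were named throughout, and from each list the tested gene with the largest increase and the largest decrease in HD-homo against control, past the threshold and with at least 1 CPM. The members and lists were chosen with earlier results of these data known. A further list of genes is not reported here.

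Lengths, coordinates and the glutamine run come from GENCODE release M21 on GRCm38. Promoters come from RefSeq on GRCm38.p6, where all 9 members matched by symbol. Likeness to *Htt* used log2(CPM + 0.001). Alternatives were other normalizations, the Wald test of DESeq2 1.42.0, other filters, the replicate block, only the lines compared, each library left out, thinning to the smallest library and a threshold of 0.01. Ribosome profiling, blots and human tissue were not analysed here.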

Additional observations from a re-analysis of the deposited data

How the results depend on the processing

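The 4 comparisons were repeated under the alternatives named above, except that the midpoint, which needs all lines, was not fitted with only the lines compared. Over single members, 599 results kept their direction and side of the threshold, 13 lost the threshold, 10 gained it and 17 changed sign. These counts include the threshold of 0.01, which reuses the main fit and so can neither change a sign nor gain a call. They also include refits without a library of a line outside the comparison, which left the log2 fold change almost as it was. *Htt*, *Hap1*, *F8a*, *Zdhhc17*, *Hypk* and *Setd2* in HD-homo against control were past the threshold in all 17 refits of that comparison, and *Hip1r* in 10 of 17, library totals being another setting that lost it (adjusted p = 0.065). Members past the threshold numbered 6 to 7 in HD-homo against control, 4 to 5 in HD-het against control and 4 to 5 in HD-homo against HD-het, with or without any library. For the log2 midpoint they numbered 3 at an adjusted p under 0.01 and 3 to 5 when libraries were left out, against 5. *Htt* per kb of its longest transcript was 7.56, 4.72 and 1.53 CPM, in the order control, HD-het, HD-homo, and 4.01 to 4.23, 2.52 to 2.57 and 0.797 to 0.847 per kb of merged exon when libraries were left out.

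The changes of sign were all of differences near 0 that missed the threshold both ways. *Pacsin1* in HD-het against control was -0.02 after thinning, -0.002 without control replicate 1, -0.03 without control replicate 2 and -0.20 without HD-het replicate 1, and *Hip1* there was -0.03 without HD-het replicate 1. Leaving out other libraries gave up to 0.17 for *Pacsin1* and 0.11 for *Hip1*. In HD-homo against HD-het, *Zdhhc17* was -0.004 with only the lines compared, -0.03 and -0.0006 without HD-het replicates 1 and 3, and -0.01 and -0.04 without HD-homo replicates 2 and 3, while *Hip1* and *Setd2* were each -0.01 without HD-het replicate 3. The highest values there were 0.06 for *Zdhhc17*, 0.14 for *Hip1* and 0.05 for *Setd2*. Against the log2 midpoint, *Hip1* was 0.06 without HD-het replicate 3 and 0.02 without HD-homo replicate 3, and *Hypk* was -0.002 with library totals, -0.01 without control replicate 1 and -0.06 without HD-het replicate 3. Their other extremes were -0.08 for *Hip1* and 0.09 for *Hypk*. The cause was not tested.

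The labels give the lines the same replicate numbers, which no source ties to a shared batch or day. Deviations from the line means correlated positively in all 9 same-numbered pairs (0.0226 to 0.245), a hint of pairing from the data. They correlated negatively in 14 of 18 differently numbered pairs (-0.251 to 0.0842). As each line is centred on its mean, these negative values largely follow from the positive ones and add no separate evidence. Not every same-numbered pair exceeded 0.1, and control replicate 1 correlated better with HD-het replicate 2 (0.0842) than with HD-het replicate 1 (0.0682), so that the numbers were not taken to pair the samples. With the replicate block, members past the threshold numbered 7, 5 and 5 in HD-homo against control, HD-het against control and HD-homo against HD-het and 6 for the midpoint, and all genes past it numbered 8372, 9160, 9938 and 9829, against 7910, 8797, 9666 and 9483. *Hypk* passed in HD-het against control (adjusted p = 0.0245) and in HD-homo against HD-het (0.0477), and *Setd2* against the midpoint (0.0249). Depth limits *Pacsin1* most, with 11 to 28 reads per library.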
